A study of Bos taurus with 12 samples.

Results

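A stretch of cattle chromosome 29 around genes of the tripartite motif 64 type was examined for differences in sperm DNA methylation between bulls whose daughters had low and high fertility. Its members are all loci of chromosome 29 between 5.45 and 5.8 megabases in the authors' deposited tables, on the ARS-UCD1.2 build. They are 331 of 17730 listed single CpG sites and 80 of 7290 listed tiles, which are windows of 500 bp on a grid of 100 bp. The listed sites run from position 5489656 to 5785828 and the tiles from 5543301 to 5780400. The stretch itself was chosen by these differences and q-values, because called sites gather there, so they are described and not tested.

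Genomic DNA from sperm of 12 bull samples was profiled by enzymatic methylation sequencing, in which enzymes in place of bisulfite convert unmethylated cytosines. The labels put 6 samples in the low and 6 in the high daughter fertility group and give no breed, age, batch or treatment. All values are the authors' group differences in percentage points, with no value per sample. The depth is therefore unknown, no spread between bulls stands beside any value, and the sperm label was not checked against marker loci. Which group was subtracted from which is not stated, so a sign is the sign as listed and is assigned to neither group. A locus is called where the authors' q is below 0.05 and the groups differ by 10 points or more in either direction.

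Tripartite motif (TRIM) proteins carry a RING finger, a B-box and a coiled coil, and many act as ubiquitin ligases, several of them in innate immunity. TRIM64 genes belong to a branch of the family that has multiplied into closely related neighbouring copies. In mammalian sperm most CpGs are methylated, while CpG islands, the CpG-rich stretches at many promoters, are mostly free of methylation. How reads that match several TRIM64 copies were placed is not stated in the sources used here, so a value at a given copy may be shared with another.

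The authors' annotation gave 8 Ensembl genes, 3 transcripts without a gene and 4 CpG islands as closest features in the region. Of the genes 2 have a full name. ENSBTAG00000053102, on the minus strand with listed features from position 5614047 to 5623543, is tripartite motif-containing protein 64-like. ENSBTAG00000049646, on the plus strand from 5714056 to 5722971, is tripartite motif-containing protein 64. Both were matched by NCBI number to the RefSeq gene table of the later ARS-UCD2.0 assembly, where they are the protein-coding LOC112444922 and LOC786377. A single entry, the pseudogene LOC786425, separates them there. In the authors' annotation ENSBTAG00000054977 and ENSBTAG00000009197 lie between them, so the 2 gene lists differ here. They are called LOC112444922 and LOC786377 below, since the symbol TRIM64 belongs to another gene of that table. The same table has 26 entries between TRIM77, another gene of this branch, and FOLH1, which codes for a folate hydrolase. Of these 26, 15 are protein-coding, and TRIM64 alone of the 15 has a symbol other than a locus number, while 6 are pseudogenes.

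Differences of both signs were listed across the whole stretch, with more negative than positive ones. Of the 331 sites 209 were negative and 122 positive, and the median difference was -1.92 points, with quartiles of -6.42 and 2.24. On the rest of chromosome 29 the 361 listed sites had a median of 0, with 177 negative and 169 positive, and over all listed sites the median was -1.01. The share of negative sites was 63.1% in the region and 59.0% over all listed sites. All listed sites include those of chromosome X. Over the listed autosomal sites alone 55.5% were negative and the median was -0.71. In the region 22 sites (6.65%) were called, against 5.94% of all listed sites, 4.48% of autosomal ones and 3.05% on the rest of the chromosome. Because the region was chosen for its calls, nothing is read from these shares. Of the calls 17 were negative, against 4.78% of all listed sites called with that sign, and 5 were positive, against 1.16%. Their absolute differences ran from 12.7 to 29.3 points with a median of 18.8. Of the 22, 4 had q below 0.01, and 6 had q of 0.04 or more, with a highest value of 0.0479. A further 43 sites differed by at least 10 points without being called, 31 of them negative, and the lowest q among them was 0.0504.

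**Figure D1:**
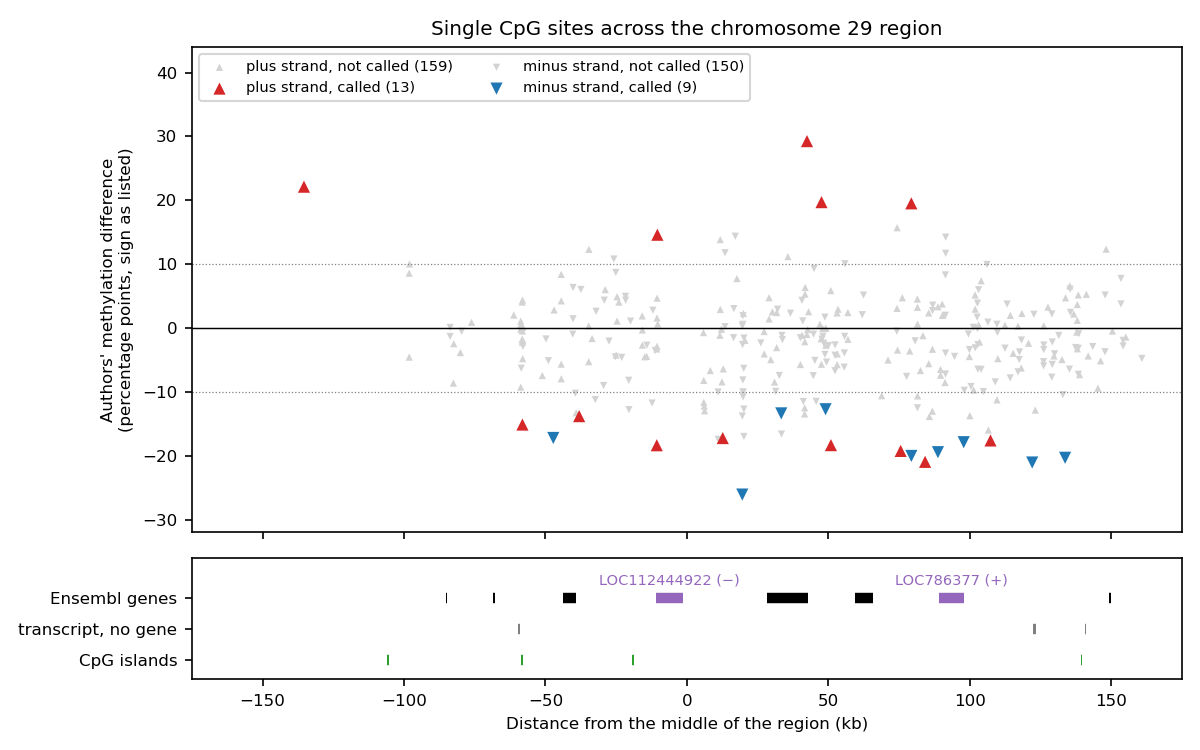
Authors' methylation difference in percentage points (vertical axis) of the 331 listed CpG sites against the distance in kb from the middle of the region, with called sites in colour by strand and dotted lines at 10 points either side of 0. The lower track gives the span of the listed features of each gene, transcript and CpG island. The 5 positive called sites are all on the plus strand, and the 17 negative ones lie on both strands.

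The called sites were spread over the region one by one. Intervals of 50 kb from the left edge onward held 1, 0, 3, 4, 5, 8 and 1 called sites among 1, 10, 47, 63, 78, 85 and 47 listed ones. The interval with 8 calls, from position 5700000 to 5749999, holds LOC786377 and had a median difference of -3.15 points. No called site had another called CpG as its nearest listed CpG, and the smallest distance between different called CpGs was 206 bp. The median spacing between listed CpGs, an unlike measure, was 275.5 bp. Since only 6.65% of the listed sites were called, these values do not show that calls keep apart. Within 500 bp, 13 of the 22 called sites had other listed CpGs, 56 in all when each called site's neighbours are counted separately. Around negative calls 28 of 44 such neighbours were negative too. Around positive calls 3 of 12 were positive, all 3 beside the call at position 5614568. Of all 331 listed sites of the region 209 (63.1%) were negative and 122 positive, so nothing is read from these neighbour counts.

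At LOC786377 (ENSBTAG00000049646), 66 sites had this gene as closest feature and 6 were called, 5 of them negative. With Benjamini-Hochberg values over chromosome 29 in place of the authors' q, 4 of the 6 were called. The 66 sites had a median of -3.21 points. Of the 6 called sites 4 lie in front of the gene. The one nearest to the coding sequence, at position 5713740 and 316 bp upstream, was listed at -19.4 points with q = 0.0429 in the authors' deposited table, and it was not called with Benjamini-Hochberg values over the chromosome (0.0514). Farther upstream, position 5709199 stood at -20.9 points (q = 0.0231), 4857 bp from the coding sequence, in the authors' deposited table. Both are in the class that the authors call promoter, which in this region reaches 9840 bp from the closest feature. A CpG 9.7 kb upstream was called on both of its strands with opposite signs and is described with the strands below. Inside the gene's last listed coding segment, position 5722843 was listed at -17.9 points with q = 0.0266 in the authors' deposited table. Downstream, 9342 bp away, position 5732313 stood at -17.6 points with q = 0.0149 in the authors' deposited table. Within the gene's listed span 13 sites ranged from -17.9 to 14.2 points with a median of -3.92, and 7 of them were negative. So the single call inside the gene is negative, but its listed sites as a group take both signs. No tile was listed inside the gene or within 10 kb of it.

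At LOC112444922 (ENSBTAG00000053102), 27 sites were listed and 3 called, and values of opposite sign lay close together inside it. With Benjamini-Hochberg values over chromosome 29 the negative site inside the gene was the 1 call of the 3. Position 5614362, within a coding segment, was listed at -18.3 points with q = 0.0222 in the authors' deposited table. Only 206 bp away, in an intron of the gene, position 5614568 stood at 14.6 points with q = 0.0464 in the authors' deposited table. The single tile covering both, at positions 5614201 to 5614700, was listed at -5.31 points with q = 0.000358 in the authors' deposited table. The 7 listed sites in this window had a mean of -0.43 points, not weighted by depth, which is unknown. Whether these sites account for the value of the tile was therefore not tested. The third called site, at position 5637678 and 14135 bp upstream, stood at -17.2 points with q = 0.0464 in the authors' deposited table. In the 10 kb on either side of the gene 15 of 18 listed sites were negative, with a median of -4.47 points, and none was called. Together these 2 genes were closest to 93 sites, of which 9 were called, both strands of 1 CpG among them. With Benjamini-Hochberg values over the chromosome 16 sites of the whole region were called, 5 of them at these 2 genes. With the authors' q the share called was 9.68% at these genes and 5.46% at the other 238 sites of the region (13 calls). Over all listed sites it was 5.94%, and over autosomal ones 4.48%. These shares rest on the same values that picked the region and carry no test.

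TRIM genes elsewhere in the tables were sparsely listed. Among sites, 12 other genes with a name that begins with tripartite motif had 15 sites in all, 8 of them negative. The 1 called site among them, at position 4380641 of chromosome 17 and 12664 bp from TRIM2, stood at 16.5 points with q = 0.0171 in the authors' deposited table. Of the 12 genes 2 are further genes of chromosome 29 whose names give tripartite motif 64. ENSBTAG00000034940, to the left of the region, had 1 site 23388 bp away at -12.6 points with q = 0.204 in the authors' deposited table. ENSBTAG00000039825, to the right, had 1 site, in an intron, listed at 2.27 points with q = 0.756 in the authors' deposited table. The latter is also the first listed site past the right edge, while the last before the left edge, at position 5422363, stood at -4.09 points with q = 0.494 in the authors' deposited table. Just inside the edges, the first site was listed at 22.1 points and the last at -4.76 points in the authors' deposited table. Of the tiles outside the region the nearest lies 1894101 bp past its right edge.

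Among genes with no functional name, ENSBTAG00000054977, on the minus strand between LOC112444922 and LOC786377, held most listed sites and the extremes of both signs. It was closest to 79 sites, of which 52 were negative and 6 were called. Of the listed sites of the region 63.1% were negative, and of all listed sites 5.94% were called. Nothing is read from the counts of this gene. The highest difference of the region, 29.3 points (q = 9.71e-05), lay in one of its introns at position 5667456 in the authors' deposited table. The nearest listed CpG, 28 bp away, stood at -0.997 points in the authors' deposited table. Upstream of the gene, in the class called promoter, position 5672582 was listed at 19.7 points with q = 9.71e-05 in the authors' deposited table, and the nearest CpG, 21 bp away, at -5.67 points. These 2 sites have the lowest q of the region, and none of the 6 listed CpGs within 500 bp of them shares their sign. Of all 331 listed sites of the region 122 were positive.

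The lowest value of the region also has this gene as its closest feature, 8688 bp downstream of a coding segment. Position 5644587 was listed at -26.1 points with q = 0.000453 in the authors' deposited table. Of the 11 listed CpGs within 500 bp 7 were negative, while 63.1% of all listed sites of the region were negative. The 11 had a median of -6.30 points, and the nearest one, 4 bp away, stood at -13.8 points. The remaining called sites of this gene in the authors' deposited table were at position 5658358 in a coding segment (-13.4 points), and at 5674015 (-12.7 points) and 5675912 (-18.3 points) upstream.

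The other called sites were single negative ones but for the first of the region. ENSBTAG00000051846, of the minus strand, had a site at position 5577781, 3361 bp downstream, at -17.2 points (q = 0.0435) and a promoter site at 5586929 at -13.8 points with q = 0.0479 in the authors' deposited table, and neither was called with Benjamini-Hochberg values over the chromosome. ENSBTAG00000009197, of the plus strand, had position 5700559, 9714 bp downstream, at -19.2 points with q = 0.0189 in the authors' deposited table. Position 5747049, 184 bp upstream of an exon of the transcript ENSBTAT00000084418, was listed at -21.1 points with q = 0.0285 in the authors' deposited table. With a CpG island as closest feature, position 5758679, 5533 bp from it, stood at -20.3 points (q = 0.0169), and position 5489656, 29495 bp from it, at 22.1 points with q = 0.0154 in the authors' deposited table. The latter lies 37187 bp from the next listed CpG and has no neighbour to be set beside. ENSBTAG00000048894, ENSBTAG00000049159 and ENSBTAG00000048802 had no called site among 6, 1 and 12 listed ones.

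By position relative to the closest feature, 9 of the 22 calls were in the promoter class, which held 28.4% of the listed sites of the region. Another 6 were inside a feature (19.6% of listed sites), 5 downstream (44.4%) and 2 distal (7.55%). Nothing is read from these counts. Of those inside, 3 were in coding sequence. The authors' annotation assigns 67 sites and 22 tiles of the region to introns whose listed start lies beyond their end, and 5 of the called sites are among them. For these loci the distance to the gene is used here and the class intron is not.

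The strands of a CpG mostly differed in sign in this region. Methylation of a CpG is usually the same on both strands, because the maintenance enzyme copies it after replication. Both strands were listed for 12 CpGs of the region, all between positions 5665130 and 5751145, and the sign was the same in 3 of them. Over all listed sites it was the same in 1147 of 1825 such CpGs (62.8%). On the rest of chromosome 29 it was the same in 5 of 10 and opposite in 3. The widest gap was at the CpG 9.7 kb upstream of LOC786377. Its plus strand, position 5704333, was listed at 19.5 points (q = 0.0447) and its minus strand, position 5704334, at -20.02 points with q = 0.0172 in the authors' deposited table. With Benjamini-Hochberg values over chromosome 29 the minus strand was called (0.0206) and the plus strand was not (0.0536). Of the 51 CpGs of the whole table with calls on both strands, 2 had calls of opposite sign, and this is one of them. The other, on chromosome 14, was listed at 16.7 points on the plus and -15.8 points on the minus strand in the authors' deposited table. The called site 316 bp upstream of the coding sequence of LOC786377, on the minus strand at -19.4 points, had a plus strand value of 3.33 points with q = 0.678 in the authors' deposited table. In the other 10 CpGs neither strand was called. Some of their plus strand values were close to 0, down to 0.29 points, where a sign says little. The gap between the strands had a median of 5.77 points in the region and 3.20 over all such CpGs.

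**Figure D2:**
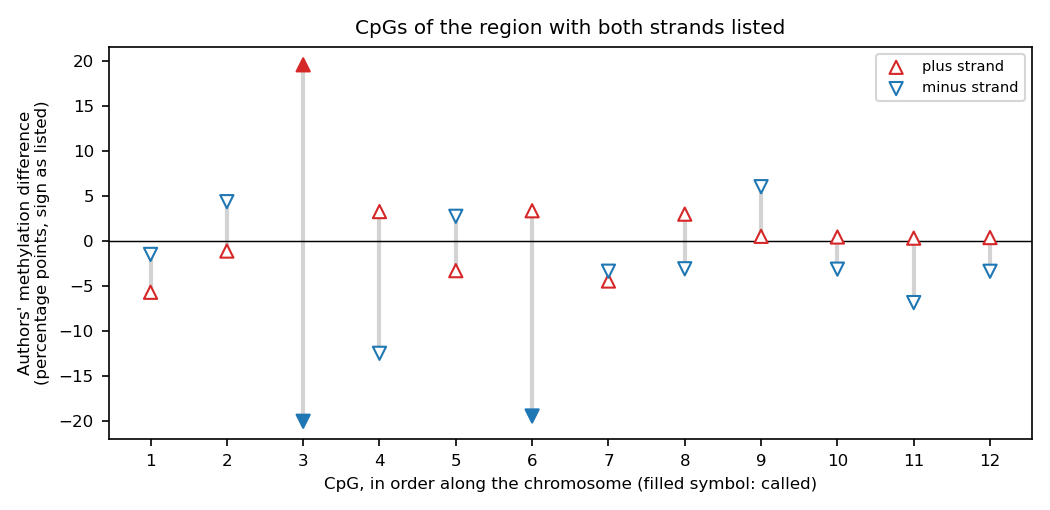
Authors' methylation difference in percentage points (vertical axis) of the plus and minus strand of the 12 CpGs of the region with both strands listed, in order along the chromosome, with filled symbols for called strands. The third CpG has the plus strand at 19.5 and the minus strand at -20.02 points, and 3 of the 12 CpGs have both strands on the same side of 0.

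The strands also differed over the listed sites at large. On the plus strand 172 sites had a median of -1.07 points, and 8 of 13 called sites were negative. On the minus strand 159 sites had a median of -2.66 points, and all 9 called sites were negative. Over all listed sites the strand medians were -1.01 on each strand, with 95 positive calls on the plus and 110 on the minus strand. The strand pattern was noticed in these values and was not tested. What in the reads moved with it was not tested either.

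Tiles showed smaller differences, most of them negative. None of the 80 tiles was called, against 2.78% of all listed tiles. The largest absolute difference was 8.86 points. At the authors' q below 0.05 with no minimum difference 45 tiles passed (56.3%, against 71.8% of all listed tiles), 43 negative and 2 positive. Over all listed tiles 55.9% were negative and 15.9% positive at this q. The same q stands for unlike p on other chromosomes. The largest p of a tile with q below 0.05 was 0.0435 on chromosome 29 but 0.503 on chromosome 28. These shares are therefore not at a like cutoff, and nothing is read from them. The number with an unadjusted p below 0.05 in the authors' deposited table was also 45, against 4798 of all 7290 listed tiles. Of all 80 tiles 69 were negative (86.3%) and 11 positive, with a median of -1.21 points, and over all listed tiles 71.6% were negative. On the rest of chromosome 29 the 128 tiles were 69 negative and 59 positive, with a median of -0.07, and over all listed tiles the median was -0.95. The tiles cover 16700 bp in 16 runs that are at least 1 kb apart, so most of the stretch has no tile. In 10 runs every tile was negative.

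**Figure D3:**
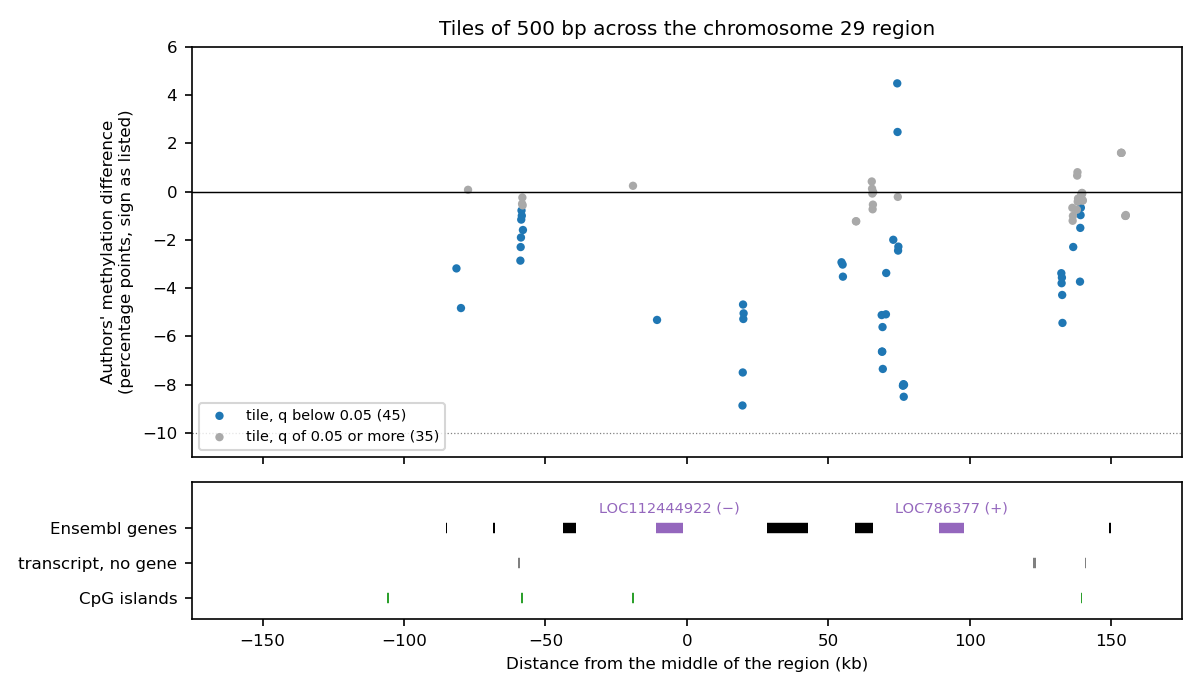
Authors' methylation difference in percentage points (vertical axis) of the 80 tiles of 500 bp against the distance in kb from the middle of the region, in blue where the authors' q was below 0.05, above the spans of listed features. The tiles reach down to -8.86 points and none passes the dotted line at -10 points.

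The run with the smallest q lay between the genes. Its 5 tiles, at positions 5701101 to 5702000 and 10256 to 10656 bp beyond ENSBTAG00000009197, stood between -8.50 and -7.98 points, with q down to 3.45e-28 in the authors' deposited table. These tiles overlap. How far single bulls differ there is unknown, so this q is not read as a measure of that. Of single sites only 1 was listed in this run, with the opposite sign, at 4.74 points in the authors' deposited table. The most negative tile covered positions 5644401 to 5644900, with -8.86 points with q = 2.09e-14 in the authors' deposited table, where the lowest single site lies too. The 5 tiles of that run were all negative, between -8.86 and -4.68 points, and the 15 sites within it had a mean of -7.58 points. Another negative run, of 7 tiles at positions 5693601 to 5695700 downstream of ENSBTAG00000009197, ranged from -7.35 to -3.37 points in the authors' deposited table. A run of 6 tiles at positions 5697701 to 5700000 had both signs, with 4 negative tiles and a median of -1.10 points. Its highest tile stood at 4.49 points (q = 0.00145) and its lowest at -2.44 points with q = 0.0316 in the authors' deposited table. Of these 6 tiles 5 had q below 0.05. The 2 positive tiles with q below 0.05 are both in this run. The 6 tiles at the 3′ end of ENSBTAG00000009197, positions 5690101 to 5691100, lay between -0.73 and 0.43 points with none below the q threshold in the authors' deposited table.

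Tiles and listed sites mostly had the same sign where they could be compared. In 40 of the 44 tiles that held listed sites (90.9%), tile and site mean were on the same side of 0. A tile is built from its CpGs, so part of this is given. The other 36 tiles held no listed site, so CpGs that the site table does not list went into them. Of the 22 called sites 4 lay inside a listed tile.

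Tiles at CpG islands differed less than the other tiles of the region. The 9 tiles that the authors' annotation places inside an island had a median absolute difference of 0.25 points, against 2.27 for the other 71 tiles of the region. For all listed autosomal tiles these medians were 0.50 and 1.61 points, so the same order holds outside the region. Of the 9 tiles only 1 lies wholly inside an island, and some of the 71 overlap one. Counted by any overlap, as in what follows, 19 tiles of the region had a median absolute difference of 0.56 points and the other 61 one of 2.86. At the island of 485 bp from position 5764212 to 5764696, the 9 tiles overlapping it stood between -1.50 and -0.05 points. The neighbouring tile, which begins 511 bp before the island, was listed at -3.73 points (q = 8.67e-05), and the 5 tiles that begin 6711 to 7111 bp before it between -5.44 and -3.38 points, in the authors' deposited table. In between, 2 tiles were positive, up to 0.81 points, so the course is not even. At the island of 439 bp from 5566466 to 5566904 the overlapping tiles ran from -2.29 to -0.24 points, and the tile just outside, in the promoter class of the transcript ENSBTAT00000074491, stood at -2.86 points in the authors' deposited table.

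**Figure D4:**
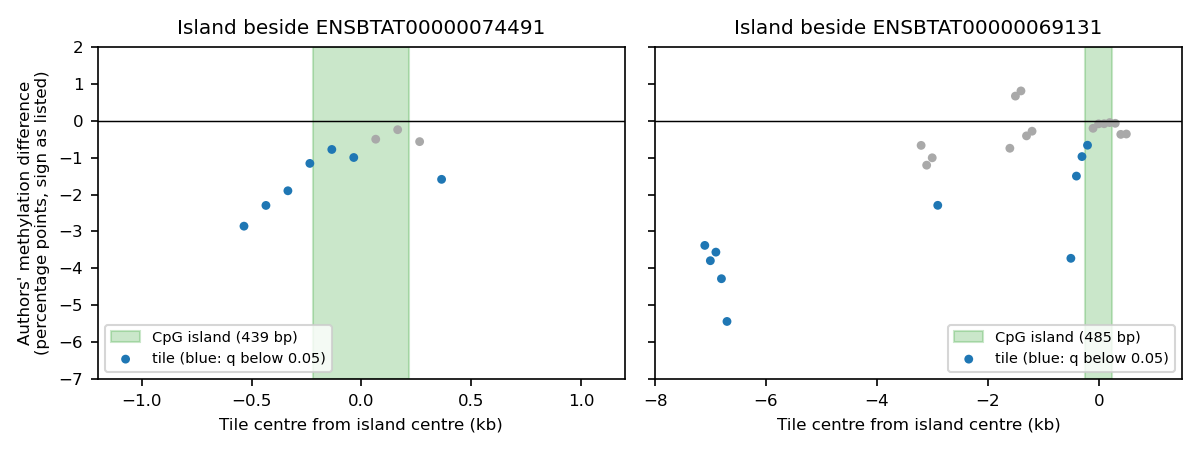
Authors' methylation difference in percentage points (vertical axis) of tiles against the distance in kb from the centre of the island to the centre of the tile, for the 2 islands of the region with most overlapping tiles (green band, 439 and 485 bp). Tiles at the right-hand island lie between -1.50 and -0.05 points, and those that begin 6711 bp or more before it at -3.38 points or lower.

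Single sites inside an island were few. All 9 lay in the island of 439 bp, 6 of them negative, with a median of -1.72 points. The site at position 5566871, 33 bp inside its edge, was called at -15.1 points with q = 0.0061 in the authors' deposited table. Its nearest listed CpG, 3 bp away, stood at -1.86 points in the authors' deposited table. The 5 tiles over this site were listed between -1.59 and -0.24 points, so the window as a whole differed far less than this CpG.

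The stretch can be set beside the other places where called sites gather. When calls were joined over gaps of up to 100 kb, 7 blocks of the whole table held 20 or more called sites. The block here ran from position 5489656 to 5758679 with 22 calls among 300 listed sites (7.33%). In the 6 other blocks this share was 6.74 to 31.4%, the highest in a block of chromosome X, and over all listed sites it was 5.94%. Of the 7 blocks 3 had no called tile, this one included, and the median of its 54 tiles was -2.97 points. The others without a called tile held only 7 and 8 tiles. These are descriptions of blocks chosen for their calls.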

How the data were processed

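Sperm DNA of 12 bulls (6 low, 6 high daughter fertility) was measured by enzymatic methylation sequencing. Trimmomatic, Bismark, methylKit and the ARS-UCD1.2 build are named, without versions or settings, per the submitters' processing notes. For each locus of their group comparison the authors deposited p-value, q-value and difference in methylation, under methylKit's column names per the file headers. The difference is a score in percentage points whose direction the authors do not state in the deposited headers. The closest feature and its distance in bp are also the authors' deposited values. Depth and values per sample were not analysed here, and no new test was run.

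From the values, the q-values of chromosome 29 are 0.834 times (sites, range 0.833 to 0.835) and 0.514 times (tiles, range 0.512 to 0.517) the Benjamini-Hochberg values computed over the 692 sites and 208 tiles listed for that chromosome. In each of the 24 chromosomes of the site table q follows the order of p, but across chromosomes the same p can have another q. The largest p with q below 0.05 was 0.00361 for sites and 0.0435 for tiles on chromosome 29. It was 0.00963 for sites on chromosome X and 0.503 for tiles on chromosome 28. Tables were read with pandas 2.3.3 in Python 3.11.15, with the adjustment step tested on simulated data. The joining step was run only on a small hand-written example that did not settle its gap rule.

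The region, lists and thresholds were chosen with earlier results of these data known. The rule for named loci takes all genes with a called locus or a tripartite motif name, the 5 lowest and 5 highest called sites, and the extremes of each run of tiles (gap up to 1000 bp). Not every locus it takes is described. Neighbour, strand and block counts were added after the data were seen. Other thresholds, adjustments, region limits and 1 value per CpG were tried as alternatives.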

Additional observations from a re-analysis of the deposited data

How the results depend on the processing

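The direction of the median differences was the same under every alternative run. The count of 22 called sites was 4 (2 negative, 2 positive) at q below 0.01 and 7 (5 negative, 2 positive) at a difference of at least 20 points. It lay between 16 and 31 in the remaining alternatives, with more negative than positive calls in each. With Benjamini-Hochberg values over chromosome 29 alone, an alternative chosen after seeing the data, 16 sites were called, and over all listed sites 21. Of the 6 calls lost over the chromosome 4 were at the 2 tripartite motif genes. Taking out CpGs whose strands differ in sign, also chosen after seeing the data, left 19 calls, 15 of them negative. At a difference of at least 5 points 17 tiles were called, all negative, and the other tile alternatives gave 0. The site median was -1.93 points with the region widened by 50 kb, and -1.07 on the plus and -2.66 on the minus strand alone, a split chosen after seeing the data. The tile median was -1.61 points over 26 tiles that do not overlap. Of the 44 tiles with listed sites 38 had the sign of the sites' median. No paired analysis was possible because the deposited tables hold no value per sample, and for the same reason no sample was left out in turn and no coverage minimum was changed.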
